A study of Mus musculus with 163 samples.

Results

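The motile cilium axoneme set held 76 protein-coding mouse genes of the 55291 genes counted in single hair cells of the cochlea at postnatal day 7. Members were taken by name: every protein-coding gene whose symbol starts with Dnah, Dnai, Dnaaf, Cfap, Tekt, Rsph or Drc, with Ccdc39, Ccdc40, Zmynd10, Hydin, Spag8, Zbbx, Nek5 and Fam92b. The list was chosen by name, but with the ratios of summed counts between mutant and control cells of this series already known, so those ratios describe its members and support nothing. Exp OHC and Exp IHC are outer and inner hair cells of mice labelled Atoh1P2A-Cre/P2A-Tdtomato/+; Rbm24flox/flox, in which Cre made from the Atoh1 locus deletes Rbm24, the gene of an RNA-binding protein. Ctrl OHC and Ctrl IHC are the same cell types of mice labelled Atoh1P2A-Tdtomato/+. All cells carry tdTomato from an Atoh1 allele. Cre, the second modified Atoh1 allele and the floxed Rbm24 alleles differ together between mutants and controls. There were 56 Exp OHCs, 43 Ctrl OHCs, 26 Exp IHCs and 38 Ctrl IHCs, each sequenced alone as full-length cDNA. The cells were picked after dissociation, and the protocol in the labels speaks of IHCs and iOHCs, a term the sample titles do not use; how a cell was put in its group is not given in the sources used here. The labels name no animal, so each group counts as 1 sample, no test was possible and no p-value is given.

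The axoneme is the microtubule core of a cilium. In a motile cilium, doublet microtubules carry outer and inner dynein arms, the motors that bend it. Nexin links join neighbouring doublets, radial spokes reach to a central pair of microtubules, and tektins and other proteins line the inside of the doublets. Dynein arms are put together in the cytoplasm by assembly factors before they are carried into the cilium. A hair cell of the mouse cochlea has a single true cilium, the kinocilium, beside its hair bundle, and loses it as it matures. Transcription factors of the RFX family, which bind the X-box motif, and the fork head factor Foxj1 are known to drive genes of motile cilia.

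The promoters of the members bear on this because RFX and fork head factors are the known drivers. RefSeq windows of GRCm38.p6, from 250 bases before to 50 bases after a gene start, were found for 63 of the 76 members, in 70 windows. They were searched on both strands for the X-box arm GTTGCC, the full X-box (GTTNCC and GGNAAC with any 2 letters between them), which can contain that arm, and the fork head motif TGTTTAC. The arm was present in 28 of 70 member windows (40.0%) and in 12.5% of all 32851 windows. The full X-box, with exactly 2 letters between its arms, was in 1 member window (1.43%), that of Cfap298, and in 0.451% of all. Other spacings were not searched. The window of Cfap298 also holds a pair of arms with 3 letters between them, which this pattern does not count. The fork head motif was in 4 member windows (5.71%) and in 3.65% of all. Base composition differed a little, with a median GC content of 55.3% in member windows and 52.7% in all windows. Shown here are the windows of Nek5 and Tekt2, with ratios above 2-fold in both cell types, Cfap161, with 3 copies of the arm, Drc1, with a copy close to the gene start, Cfap298, with the full X-box, and Ccdc40, a large difference with none of these letters. Each is printed 5′ to 3′ on the strand of the gene, with GTTGCC, its reverse complement GGCAAC and the full X-box in capitals. RefSeq lists 3 windows for Tekt2, of which the middle is shown.
Nek5, chr8:22125018-22125317, minus strand: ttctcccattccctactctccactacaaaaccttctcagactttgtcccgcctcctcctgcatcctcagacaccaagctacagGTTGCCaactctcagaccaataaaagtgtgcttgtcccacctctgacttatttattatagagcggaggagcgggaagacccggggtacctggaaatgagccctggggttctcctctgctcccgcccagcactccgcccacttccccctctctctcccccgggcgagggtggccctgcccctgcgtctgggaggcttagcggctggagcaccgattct
Tekt2, chr4:126325597-126325896, minus strand: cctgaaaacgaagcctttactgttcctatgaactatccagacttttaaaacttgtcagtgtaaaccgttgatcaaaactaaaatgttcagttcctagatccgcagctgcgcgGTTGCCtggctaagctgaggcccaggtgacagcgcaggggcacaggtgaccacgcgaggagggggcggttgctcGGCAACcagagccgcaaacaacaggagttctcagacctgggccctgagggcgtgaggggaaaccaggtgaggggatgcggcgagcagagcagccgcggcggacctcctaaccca
Cfap161, chr7:83794790-83795089, minus strand: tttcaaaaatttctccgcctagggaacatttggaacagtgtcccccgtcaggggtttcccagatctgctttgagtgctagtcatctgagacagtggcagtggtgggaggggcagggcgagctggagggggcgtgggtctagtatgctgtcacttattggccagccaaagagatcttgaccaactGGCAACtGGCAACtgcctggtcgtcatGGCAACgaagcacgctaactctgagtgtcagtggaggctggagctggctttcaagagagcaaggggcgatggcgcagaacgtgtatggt
Drc1, chr5:30281143-30281442, plus strand: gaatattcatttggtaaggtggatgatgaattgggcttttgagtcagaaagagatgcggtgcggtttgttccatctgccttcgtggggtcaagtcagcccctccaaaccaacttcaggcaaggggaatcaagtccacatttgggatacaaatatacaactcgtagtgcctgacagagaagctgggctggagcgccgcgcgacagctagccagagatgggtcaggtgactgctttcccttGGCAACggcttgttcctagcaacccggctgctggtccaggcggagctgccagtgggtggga
Cfap298, chr16:90934800-90935099, minus strand: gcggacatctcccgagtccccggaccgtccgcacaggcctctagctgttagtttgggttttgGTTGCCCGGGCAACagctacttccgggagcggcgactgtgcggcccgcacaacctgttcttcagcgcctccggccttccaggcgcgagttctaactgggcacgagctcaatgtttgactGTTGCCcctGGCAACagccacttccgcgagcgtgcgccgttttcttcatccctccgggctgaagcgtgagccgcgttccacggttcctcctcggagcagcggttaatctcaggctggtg
Ccdc40, chr11:119228322-119228621, plus strand: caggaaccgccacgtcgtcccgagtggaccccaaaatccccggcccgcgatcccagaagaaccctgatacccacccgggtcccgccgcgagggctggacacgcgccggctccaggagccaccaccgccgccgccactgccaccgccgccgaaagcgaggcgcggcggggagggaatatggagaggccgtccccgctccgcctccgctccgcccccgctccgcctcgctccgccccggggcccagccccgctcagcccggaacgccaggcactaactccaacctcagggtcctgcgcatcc
Members with the arm and members without it were set side by side. Of members at a mean of 1 count per 1000000 (CPM) or more, 17 of 26 with the arm and 22 of 30 without it were 2-fold higher in Exp than in Ctrl OHCs, with median log2 ratios of 1.48 and 1.72. In IHCs the counts were 18 of 25 and 24 of 30, with medians of 2.43 and 1.98. A match of letters is a description, not a binding site.

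Levels are CPM over the pooled cells of a group. Counts per cell, in units of 1000000, ranged from 5.47 to 18.1, with medians of 12.8 in Exp OHCs, 9.09 in Ctrl OHCs, 14.2 in Exp IHCs and 8.67 in Ctrl IHCs. Mitochondrially encoded genes held a median of 4.36% of counts in Exp OHCs against 6.04% in Ctrl OHCs, and 4.77% in Exp IHCs against 7.52% in Ctrl IHCs; the part of depth and of these shares in the results was not tested beyond thinning. Rbm24 was at 0.212 CPM in Exp OHCs against 315 CPM in Ctrl OHCs, and the highest mutant cell (15.6 CPM) lay below the lowest control cell (78.8 CPM), as the genotype labels say. The cell labelled Ctrl OHC 1 stood apart: prestin (Slc26a5) was at 0.156 CPM against a median of 344 CPM in Ctrl OHCs, oncomodulin (Ocm) at 7.64 against 3162 CPM, and Ikzf2 at 0, while the hair cell genes Myo7a (274 CPM) and Pou4f3 (521 CPM) were near the medians. Cells with Y-linked transcripts made up 16 of 56 Exp OHCs against 32 of 43 Ctrl OHCs, and 7 of 26 Exp IHCs against 26 of 38 Ctrl IHCs. Results are therefore also given without that cell and by these sets where they move.

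The axoneme set as a whole was higher in the mutant cells of both types. Its summed level was 4372 CPM in Exp OHCs against 1536 CPM in Ctrl OHCs, a 2.85-fold difference (log2 ratio 1.51), and 5753 CPM in Exp IHCs against 1749 CPM in Ctrl IHCs, a 3.29-fold difference (log2 ratio 1.72). The counting intervals of the log2 ratios, 1.51 to 1.51 and 1.71 to 1.72, do not cover the spread between animals. Without Ctrl OHC 1 the log2 ratio in OHCs was 1.58. It was 1.57 among OHCs with Y-linked transcripts and 1.10 among OHCs with Xist, or 1.37 without Ctrl OHC 1. In IHCs the same sets gave 1.77 and 1.66. Whether the mix of male and female cells has a part in the difference was not tested beyond these values.

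By gene, 67 of the 76 members had a mean of at least 1 CPM over the 2 OHC groups. Of these, 48 (71.6%) were at least 2-fold higher in Exp OHCs, and 18.4% of all 14588 genes at that level were. Only Dnah8 among the 67 was at least 2-fold lower, and 13.1% of all genes were. The other 18 lay within 2-fold. The median log2 ratio was 1.73 over the members and 0.06 over all genes. In IHCs, 51 of 66 members (77.3%) were at least 2-fold higher in Exp IHCs, where 18.8% of all 14557 genes were, and none was 2-fold lower, where 11.7% of all genes were. The median log2 ratio was 2.25 over the members and 0.11 over all genes. The members under the level numbered 9 in OHCs and 10 in IHCs. Among OHCs with Xist, 36 members were 2-fold higher, and 43 were without Ctrl OHC 1. The shares of all genes in those sets of cells were not computed.

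**Figure D1:**
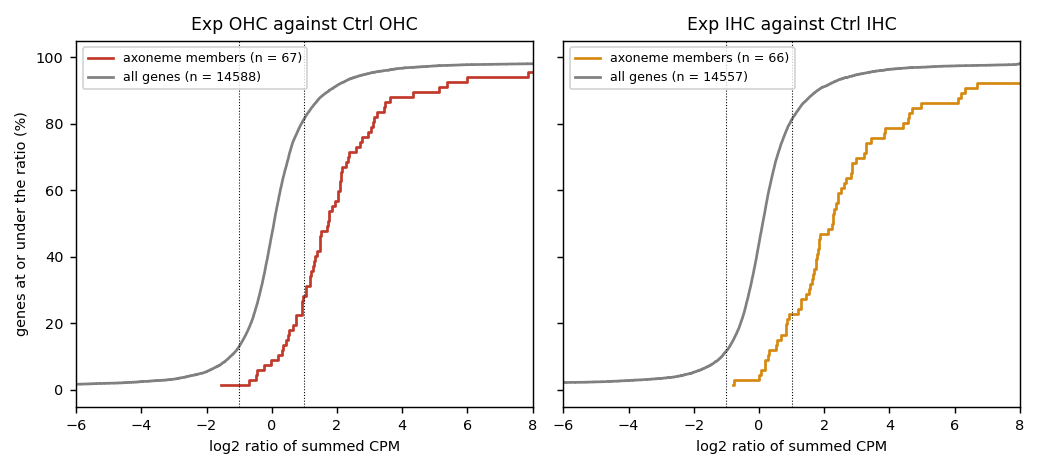
Cumulative percentage of genes (vertical axis) by log2 ratio of summed CPM, mutant over control (horizontal axis, drawn from -6 to 8), for the axoneme members and for all genes with a mean of at least 1 CPM, in OHCs and in IHCs. The curves of the members lie to the right of those of all genes, with medians of 1.73 against 0.06 in OHCs and 2.25 against 0.11 in IHCs.

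**Figure D2:**
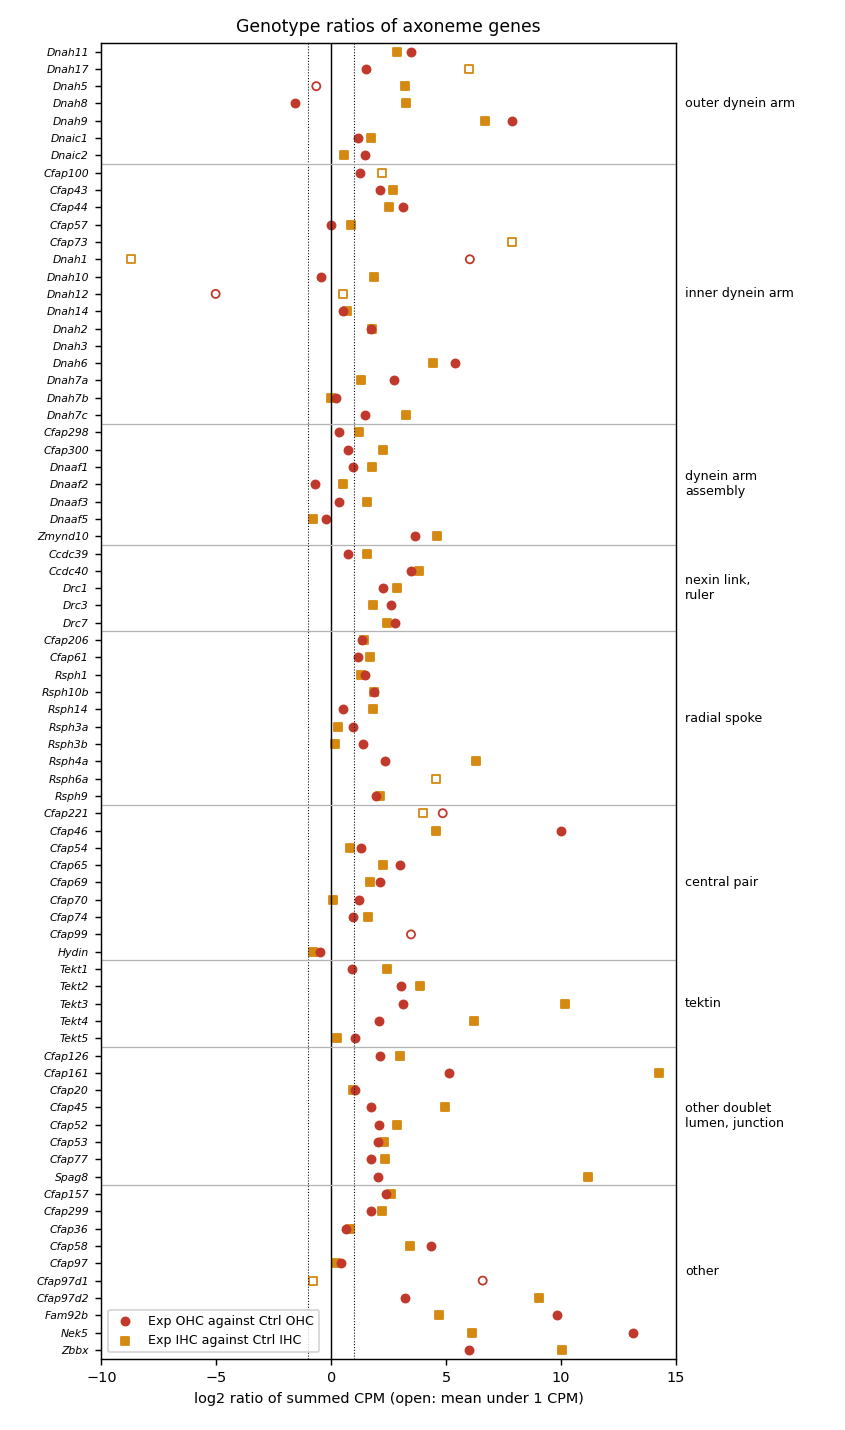
Log2 ratio of summed CPM, mutant over control (horizontal axis), for each member, arranged by subcomplex. Circles are OHCs, squares are IHCs, open symbols have a mean under 1 CPM and dotted lines mark 2-fold; most filled symbols lie right of the upper 2-fold line, and Dnah8 in OHCs (-1.56) lies left of the lower.

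At a mean of 1 CPM or more in each comparison, 40 members were at least 2-fold higher in the mutants in both cell types: 83.3% of the 48 in OHCs and 78.4% of the 51 in IHCs. For all genes, 1050 were, which is 39.1% of those higher in OHCs and 38.4% of those higher in IHCs. The 2 comparisons share no cells, but the cells of both types may come from the same animals, which are not named. With that level required, the 8 members counted as 2-fold higher in OHCs and not in IHCs were Cfap100, Cfap20, Cfap54, Cfap70, Dnah17, Dnaic2, Rsph3b and Tekt5; Cfap100 and Dnah17 were more than 2-fold higher in IHCs as well, at means under 1 CPM. The 11 counted as higher in IHCs and not in OHCs were Ccdc39, Cfap298, Cfap300, Cfap74, Dnaaf1, Dnaaf3, Dnah10, Dnah5, Dnah8, Rsph14 and Tekt1, of which Dnah8 was 2-fold lower in OHCs. Whether any of these differed between the cell types was not tested. The 17 counted as higher in neither included the central pair gene Hydin, the assembly factors Dnaaf2 and Dnaaf5, and Cfap36, all within 2-fold. They also included Cfap221, Cfap73, Cfap97d1, Cfap99, Dnah1, Dnah12 and Rsph6a, which had ratios past 2-fold in at least 1 cell type but means under 1 CPM there.

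The same difference was seen cell by cell. The number of members at 10 CPM or more in a cell was lowest 12, median 33 and highest 47 in Exp OHCs, against lowest 7, median 18 and highest 38 in Ctrl OHCs. In IHCs it was lowest 26, median 40.5 and highest 53 in Exp IHCs, against lowest 12, median 22 and highest 37 in Ctrl IHCs. The counts overlapped between the genotypes in both cell types. Thinning every cell to 5000000 counts gave medians of 34 and 19 in Exp and Ctrl OHCs and of 40.5 and 22 in Exp and Ctrl IHCs.

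The summed level of the members per cell was lowest 1793, median 4203 and highest 7574 CPM in Exp OHCs, against lowest 436, median 1432 and highest 6299 CPM in Ctrl OHCs. It was lowest 3622, median 5651 and highest 8577 CPM in Exp IHCs, against lowest 916, median 1756 and highest 2796 CPM in Ctrl IHCs. In IHCs the groups did not overlap: all 26 Exp IHCs lay above all 38 Ctrl IHCs. In OHCs they overlapped, and the highest control, at 6299 CPM with 38 members at 10 CPM or more, was Ctrl OHC 1. This cell held the highest Ctrl OHC level of 24 members, and its Foxj1 level was 84.3 CPM against a median of 1.86 CPM. The next Ctrl OHC was at 3517 CPM, and 43 of 56 Exp OHCs lay above it.

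**Figure D3:**
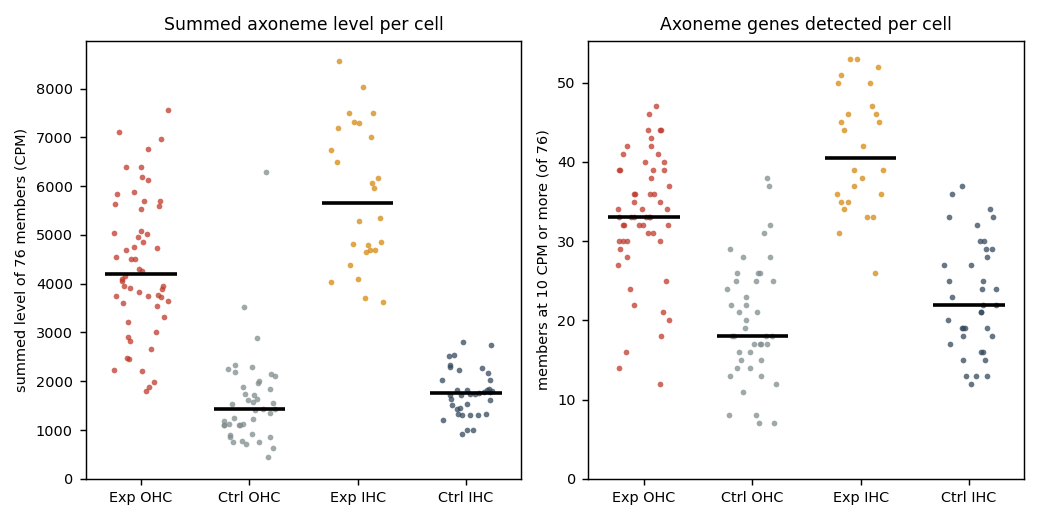
Summed CPM of the members and number of members at 10 CPM or more (vertical axes) in each cell, by group, with the group median as a bar. All Exp IHCs lie above all Ctrl IHCs in summed CPM, and 1 Ctrl OHC at 6299 CPM lies among the Exp OHCs.

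**Figure D4:**
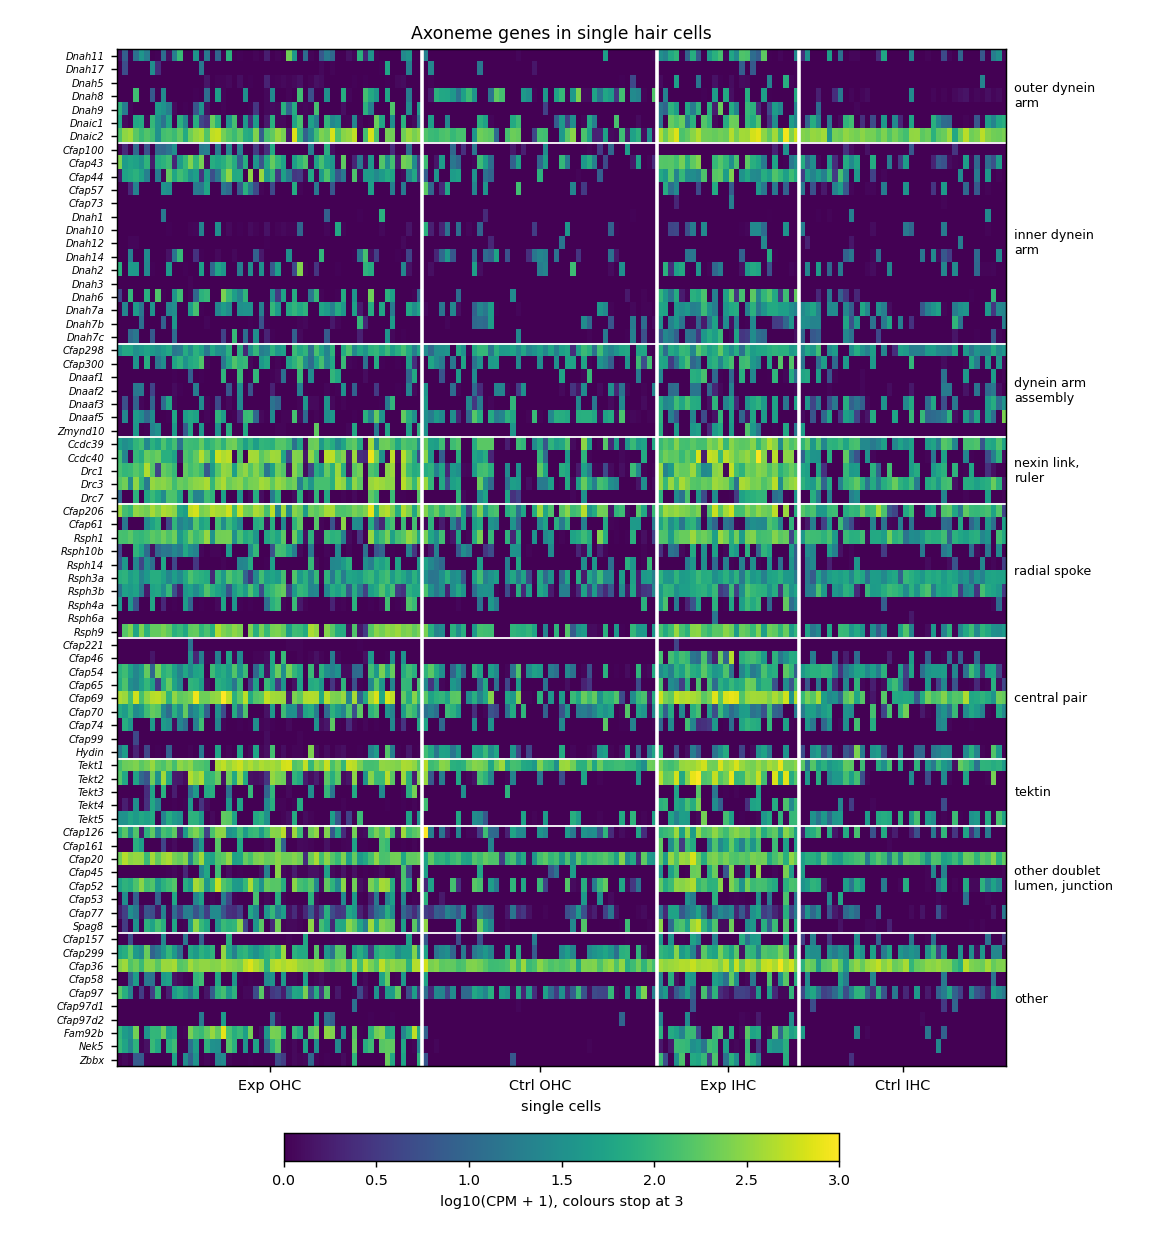
Level of each member (rows, by subcomplex) in each of the 163 cells (columns, by group), as log10(CPM + 1) capped at 3. Rows of the mutant groups are filled in more cells than those of the controls, and most members have counts in some cells of a group and none in others.

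Most members reached 10 CPM in a part of the cells of a group. The share of cells at 10 CPM or more was higher in Exp than in Ctrl OHCs for 59 of 76 members, lower for 11 and equal for 6. In IHCs it was higher for 62, lower for 6 and equal for 8. In 50% of the cells or more, 31 members were found in Exp OHCs against 15 in Ctrl OHCs, and 43 in Exp IHCs against 18 in Ctrl IHCs. For the 45 members found at that level in at least 5 cells of each OHC group, the share of cells had a median log2 ratio of 0.65, and the median level within the cells that had the gene a median log2 ratio of 0.60. For 44 such members in IHCs these were 0.64 and 1.02. All 4 medians were above 0. These shares and levels were not computed over all genes, so they have no background beside them. At any count, the median number of all genes in a cell was 9698.5 in Exp OHCs and 9774.0 in Ctrl OHCs. In IHCs it was 10236.5 in Exp IHCs and 10209.0 in Ctrl IHCs. Within a group, Spearman correlations over pairs of members had medians of 0.084 in Exp OHCs and 0.17 in Ctrl OHCs. In IHCs the medians were 0.067 in Exp IHCs and 0.094 in Ctrl IHCs. Members with a count in 50% of the cells or more were used. Pairs of other genes were not computed, so these medians have no background. The part of transcripts missed in single cells was not tested. The cells of a group share its preparation and its unnamed animals.

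Among members placed in no subcomplex, Nek5 and Fam92b were far higher in mutants of both cell types. Nek5 (a kinase of the NIMA-related family; ENSMUSG00000037738.11, chr8:22073616-22125053, - strand, mm10) was at 0 in most control cells. In Exp OHCs its level per cell was lowest 0, median 22.2 and highest 187 CPM, against lowest 0, median 0 and highest 0.135 CPM in Ctrl OHCs. In Exp IHCs it was lowest 0, median 22.2 and highest 122 CPM, against lowest 0, median 0 and highest 23.2 CPM in Ctrl IHCs. It reached 10 CPM in 31 of 56 Exp OHCs against 0 of 43 Ctrl OHCs, and 14 of 26 Exp IHCs against 1 of 38 Ctrl IHCs. Summed, this was 45.5 CPM in Exp OHCs against 0.00501 CPM in Ctrl OHCs, with 37.5 CPM in Exp IHCs against 0.539 CPM in Ctrl IHCs. Ctrl OHCs held 2 counts in all, on which the log2 ratio in OHCs, 13.15 (95% interval 11.30 to 16.20), rests. That interval covers counting error only, not the spread between cells or animals. The ratio in IHCs was 6.12 (95% interval 5.91 to 6.33).

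Fam92b (ENSMUSG00000042269.15, chr8:120166397-120177466, - strand), whose product binds at the base of cilia, followed the same pattern. Per cell it was lowest 0, median 81.1 and highest 742 CPM in Exp OHCs, against lowest 0, median 0 and highest 7.79 CPM in Ctrl OHCs. In IHCs it was lowest 0, median 51.3 and highest 179 CPM in Exp IHCs, against lowest 0, median 0 and highest 45.8 CPM in Ctrl IHCs. The sums were 115 CPM in Exp OHCs against 0.125 CPM in Ctrl OHCs, with 57.2 CPM in Exp IHCs against 2.19 CPM in Ctrl IHCs, and all Ctrl OHC counts came from Ctrl OHC 1. The log2 ratios were 9.84 (95% interval 9.44 to 10.27) in OHCs and 4.71 (95% interval 4.60 to 4.81) in IHCs. Zbbx (ENSMUSG00000034151.13, chr3:75037907-75165034, - strand) was at 13.1 CPM in Exp OHCs against 0.208 CPM in Ctrl OHCs, with 39.8 CPM in Exp IHCs against 0.0373 CPM in Ctrl IHCs, with cells at 10 CPM or more in 10 of 56 Exp OHCs against 0 of 43 Ctrl OHCs, and 14 of 26 Exp IHCs against 0 of 38 Ctrl IHCs. In OHCs, 29.8% of the Zbbx counts of the mutants came from a single cell.

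**Figure D5:**
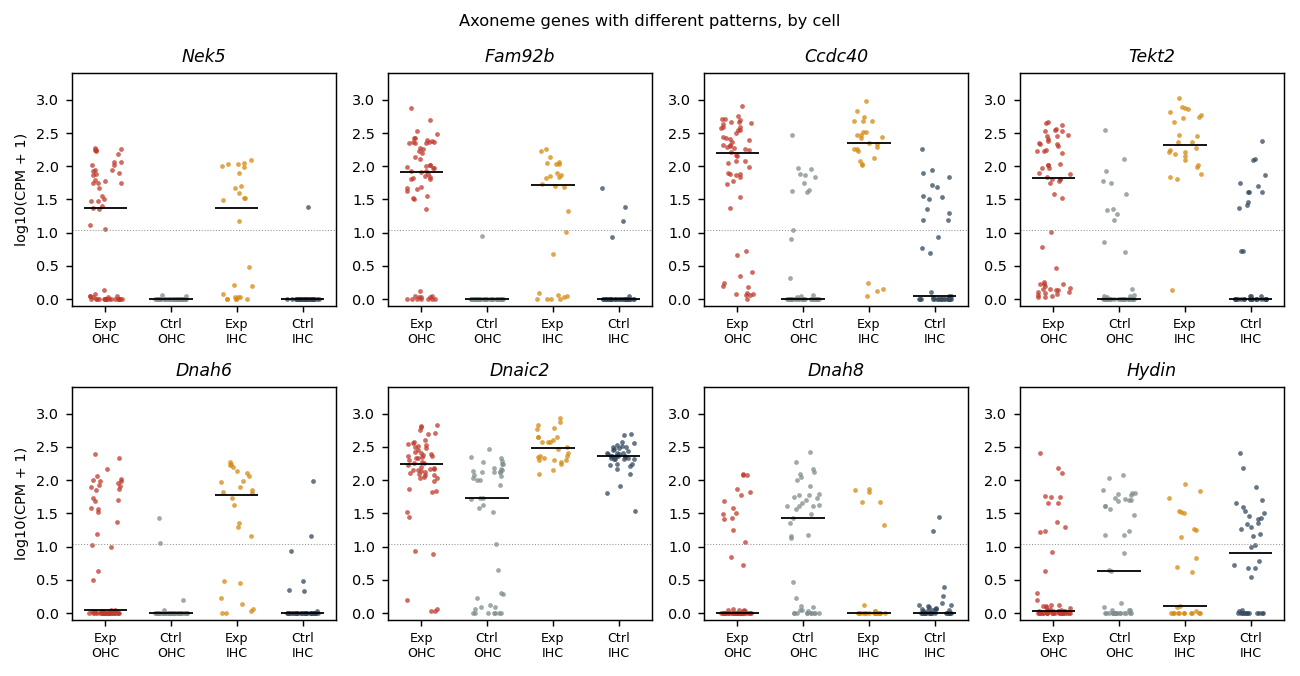
Level of Nek5, Fam92b, Ccdc40, Tekt2, Dnah6, Dnaic2, Dnah8 and Hydin in each cell, by group, as log10(CPM + 1), with group medians as bars and a dotted line at 10 CPM. Nek5 and Fam92b lie near 0 in nearly all control cells, Dnah8 is high in many Ctrl OHCs, and Hydin has cells above 10 CPM in all 4 groups.

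Of outer dynein arm genes at 1 CPM or more, 5 of 6 were 2-fold higher in the mutants in each cell type. Median log2 ratios were 1.50 in OHCs and 3.04 in IHCs. The summed level of these genes had log2 ratios of 1.09 in OHCs and 0.96 in IHCs, the lowest of the subcomplexes in IHCs. Most of the IHC sum was Dnaic2, at 243 of 271 CPM in Ctrl IHCs and 358 of 527 CPM in Exp IHCs. Its own log2 ratio in IHCs was 0.56. On a scale per exon length, transcripts per 1000000 (TPM), the intermediate chain Dnaic2 was far above the heavy chains, at 111 TPM in Exp OHCs and 184 TPM in Exp IHCs. No heavy chain of the outer arm was above 7.43 TPM, the level of Dnah11 in Exp IHCs. Among these, Dnah9 (ENSMUSG00000056752.16, chr11:65831282-66168551, - strand) was at 15.1 CPM in Exp OHCs against 0.0651 CPM in Ctrl OHCs, with 37.3 CPM in Exp IHCs against 0.364 CPM in Ctrl IHCs, with log2 ratios of 7.86 (95% interval 7.31 to 8.48) and 6.68 (95% interval 6.42 to 6.94). All Dnah9 counts in Ctrl OHCs, and 99.2% of those in Ctrl IHCs, came from a single cell of the group. Dnah11 was at 14.2 CPM in Exp OHCs against 1.29 CPM in Ctrl OHCs, with 45.8 CPM in Exp IHCs against 6.30 CPM in Ctrl IHCs.

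Of the intermediate chains, Dnaic2 was already abundant in controls. It was at 211 CPM in Exp OHCs against 75.8 CPM in Ctrl OHCs, with 358 CPM in Exp IHCs against 243 CPM in Ctrl IHCs, with log2 ratios of 1.47 and 0.56, and every IHC of either genotype was above 10 CPM. Dnaic1 was at 37.0 CPM in Exp OHCs against 16.3 CPM in Ctrl OHCs, with 65.9 CPM in Exp IHCs against 19.7 CPM in Ctrl IHCs. Dnah5 and Dnah17 stayed under 10 CPM in every group. Of members at a mean of 1 CPM or more in both comparisons, Dnah8 alone was past 2-fold in opposite directions. It was at 14.9 CPM in Exp OHCs against 43.9 CPM in Ctrl OHCs, with 12.6 CPM in Exp IHCs against 1.30 CPM in Ctrl IHCs, a log2 ratio of -1.56 (95% interval -1.59 to -1.52) in OHCs and 3.27 (95% interval 3.14 to 3.42) in IHCs. It was found at 10 CPM or more in 14 of 56 Exp OHCs against 26 of 43 Ctrl OHCs, and 6 of 26 Exp IHCs against 2 of 38 Ctrl IHCs, so its Ctrl OHC level stood above those of the other 3 groups. Dnah8 is known as a heavy chain of sperm outer arms.

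Inner dynein arm genes at 1 CPM or more were 2-fold higher in 7 of 11 in OHCs and in 7 of 10 in IHCs, none lower, with median log2 ratios of 1.49 and 1.83. Dnah6 (ENSMUSG00000052861.13, chr6:73017606-73221651, - strand) had the largest ratios of these in both cell types; Dnah1 in OHCs and Cfap73 in IHCs, at means under 1 CPM, had larger ones. Per cell it was lowest 0, median 0.0924 and highest 249.6 CPM in Exp OHCs, against lowest 0, median 0 and highest 26.3 CPM in Ctrl OHCs. In IHCs it was lowest 0, median 58.2 and highest 189 CPM in Exp IHCs, against lowest 0, median 0 and highest 96.7 CPM in Ctrl IHCs. The log2 ratios were 5.39 and 4.43. A single cell held 68.5% of the Dnah6 counts in Ctrl OHCs, and a single cell 77.4% of those in Ctrl IHCs. Cfap43 and Cfap44, of the tether of an inner arm dynein, were found in many cells. Cfap43 was at 72.3 CPM in Exp OHCs against 16.7 CPM in Ctrl OHCs, with 87.6 CPM in Exp IHCs against 13.8 CPM in Ctrl IHCs. Cfap44 was at 54.6 CPM in Exp OHCs against 6.19 CPM in Ctrl OHCs, with 76.2 CPM in Exp IHCs against 13.4 CPM in Ctrl IHCs.

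Dnah2, an inner arm heavy chain, was at 17.4 CPM in Exp OHCs against 5.15 CPM in Ctrl OHCs, with 16.8 CPM in Exp IHCs against 4.85 CPM in Ctrl IHCs. The genes Dnah7a, Dnah7b and Dnah7c, all on chromosome 1, are near copies, so reads may be split among them. Dnah7a was at 27.7 CPM in Exp OHCs against 4.21 CPM in Ctrl OHCs, with 38.9 CPM in Exp IHCs against 16.0 CPM in Ctrl IHCs. Dnah7b was at 3.72 CPM in Exp OHCs against 3.24 CPM in Ctrl OHCs, with 10.9 CPM in Exp IHCs against 10.9 CPM in Ctrl IHCs. Dnah7c was at 4.27 CPM in Exp OHCs against 1.52 CPM in Ctrl OHCs, with 16.0 CPM in Exp IHCs against 1.66 CPM in Ctrl IHCs. Dnah7a and Dnah7c were 2-fold higher in both cell types, while Dnah7b lay within 2-fold in both. The inner arm genes Cfap100, Cfap57, Dnah1, Dnah10, Dnah12 and Dnah14 stayed under 10 CPM in every group. Dnah1, at a mean under 1 CPM in each cell type, was at 1.80 CPM in Exp OHCs against 0.0275 CPM in Ctrl OHCs, with 0.00274 CPM in Exp IHCs against 1.14 CPM in Ctrl IHCs. Cfap73 and Dnah3 were at under 1 CPM throughout, and Dnah3 was at 0 in 3 of the groups.

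Dynein arm assembly factors had the lowest summed ratio of the subcomplexes in OHCs. Only Zmynd10 of 7 was 2-fold higher in Exp OHCs, against 5 of 7 in Exp IHCs, and the summed level of the 7 had a log2 ratio of 0.41 in OHCs and 1.29 in IHCs. Zmynd10 was at 15.7 CPM in Exp OHCs against 1.26 CPM in Ctrl OHCs, with 25.2 CPM in Exp IHCs against 1.05 CPM in Ctrl IHCs, and found in 15 of 56 Exp OHCs against 2 of 43 Ctrl OHCs, and 12 of 26 Exp IHCs against 1 of 38 Ctrl IHCs. All Zmynd10 counts in Ctrl IHCs came from that 1 cell. Cfap298 was at 53.2 CPM in Exp OHCs against 42.6 CPM in Ctrl OHCs, with 70.3 CPM in Exp IHCs against 30.8 CPM in Ctrl IHCs, but 44.2% of its exons lie on a gene of the other strand, Gm49727. Cfap300 was at 34.4 CPM in Exp OHCs against 20.4 CPM in Ctrl OHCs, with 54.7 CPM in Exp IHCs against 11.4 CPM in Ctrl IHCs. These are factors of the cytoplasmic assembly of dynein arms.

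Dnaaf1 was at 11.0 CPM in Exp OHCs against 5.74 CPM in Ctrl OHCs, with 23.2 CPM in Exp IHCs against 6.87 CPM in Ctrl IHCs. Dnaaf3 was at 6.61 CPM in Exp OHCs against 5.22 CPM in Ctrl OHCs, with 40.6 CPM in Exp IHCs against 14.0 CPM in Ctrl IHCs. Dnaaf5 alone of the 7 had ratios below 0 in both cell types, at 30.0 CPM in Exp OHCs against 35.3 CPM in Ctrl OHCs, with 17.2 CPM in Exp IHCs against 29.6 CPM in Ctrl IHCs, with log2 ratios of -0.23 and -0.78 within 2-fold. Part of the exons of Dnaaf1 (20.7%), on the other strand from Taf1c, can share reads with that gene where strand was not used in counting. Dnaaf2 stayed under 10 CPM, and shares 32.7% of its exons with a transcript of the other strand.

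The nexin link and ruler genes were higher in both cell types: 4 of 5 were 2-fold higher in Exp OHCs and 5 of 5 in Exp IHCs, with summed levels 4.61-fold and 4.91-fold higher. Ccdc40 (ENSMUSG00000039963.20, chr11:119228572-119265238, + strand), which with Ccdc39 sets the repeat along the doublet, was at lowest 0, median 156 and highest 809 CPM per cell in Exp OHCs, against lowest 0, median 0 and highest 292 CPM in Ctrl OHCs. Inner hair cells gave lowest 0.126, median 219 and highest 971 CPM in Exp IHCs, against lowest 0, median 0.0951 and highest 182 CPM in Ctrl IHCs. Control medians were near 0, and cells at 10 CPM or more were 43 of 56 Exp OHCs against 10 of 43 Ctrl OHCs, and 22 of 26 Exp IHCs against 13 of 38 Ctrl IHCs. The log2 ratios were 3.45 (95% interval 3.41 to 3.48) and 3.84 (95% interval 3.80 to 3.87).

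Its partner Ccdc39 differed less, at 104 CPM in Exp OHCs against 62.2 CPM in Ctrl OHCs, with 199 CPM in Exp IHCs against 67.3 CPM in Ctrl IHCs, with log2 ratios of 0.75 and 1.56. Of the exons of Ccdc39, 16.9% overlap Ttc14 on the other strand. The nexin-dynein regulatory complex genes were higher throughout. Drc1 was at 144 CPM in Exp OHCs against 29.7 CPM in Ctrl OHCs, with 185 CPM in Exp IHCs against 25.6 CPM in Ctrl IHCs. Drc3 was at 225 CPM in Exp OHCs against 37.7 CPM in Ctrl OHCs, with 247 CPM in Exp IHCs against 69.8 CPM in Ctrl IHCs. Drc7 was at 37.6 CPM in Exp OHCs against 5.54 CPM in Ctrl OHCs, with 31.1 CPM in Exp IHCs against 5.84 CPM in Ctrl IHCs. Drc3 reached 10 CPM in 54 of 56 Exp OHCs against 23 of 43 Ctrl OHCs, and 26 of 26 Exp IHCs against 32 of 38 Ctrl IHCs.

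Radial spoke genes were 2-fold higher in 7 of 9 in each cell type, with summed log2 ratios of 1.42 in OHCs and 1.34 in IHCs. Cfap206, at the base of a spoke, was at 285 CPM in Exp OHCs against 114 CPM in Ctrl OHCs, with 235 CPM in Exp IHCs against 87.2 CPM in Ctrl IHCs. Per length, Cfap206 led in Exp OHCs (276 TPM) and Rsph1 in Exp IHCs (293 TPM). The spoke head genes Rsph1, Rsph4a, Rsph9 and Rsph10b were all 2-fold higher in both. Rsph9 was at 176 CPM in Exp OHCs against 45.9 CPM in Ctrl OHCs, with 162 CPM in Exp IHCs against 37.0 CPM in Ctrl IHCs. Rsph1 was at 115 CPM in Exp OHCs against 41.2 CPM in Ctrl OHCs, with 172 CPM in Exp IHCs against 69.7 CPM in Ctrl IHCs. Both were at 10 CPM or more in most mutant cells of each type. Rsph10b was at 16.2 CPM in Exp OHCs against 4.50 CPM in Ctrl OHCs, with 22.1 CPM in Exp IHCs against 6.11 CPM in Ctrl IHCs. Rsph4a was at 19.0 CPM in Exp OHCs against 3.74 CPM in Ctrl OHCs, with 36.3 CPM in Exp IHCs against 0.453 CPM in Ctrl IHCs. The ratio of Rsph4a in IHCs was the largest of these, with a log2 of 6.32.

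Cfap61, of a complex at the spoke base, was at 43.0 CPM in Exp OHCs against 19.2 CPM in Ctrl OHCs, with 40.3 CPM in Exp IHCs against 12.7 CPM in Ctrl IHCs. Rsph14 was at 17.3 CPM in Exp OHCs against 12.1 CPM in Ctrl OHCs, with 9.97 CPM in Exp IHCs against 2.81 CPM in Ctrl IHCs. Rsph3a and Rsph3b are near copies on chromosome 17 and may share reads. Rsph3a was at 63.6 CPM in Exp OHCs against 32.7 CPM in Ctrl OHCs, with 55.3 CPM in Exp IHCs against 44.9 CPM in Ctrl IHCs. Rsph3b was at 53.2 CPM in Exp OHCs against 20.3 CPM in Ctrl OHCs, with 61.0 CPM in Exp IHCs against 53.7 CPM in Ctrl IHCs. In IHCs both lay within 2-fold. Rsph6a stayed under 1 CPM.

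The central pair genes were 2-fold higher in 5 of 7 in OHCs and 4 of 7 in IHCs. Cfap69 had the highest level per length (92.1 TPM in Exp OHCs and 115 TPM in Exp IHCs) and was at 303 CPM in Exp OHCs against 69.5 CPM in Ctrl OHCs, with 386 CPM in Exp IHCs against 121 CPM in Ctrl IHCs, with log2 ratios of 2.12 and 1.67. Cfap65 was at 44.6 CPM in Exp OHCs against 5.71 CPM in Ctrl OHCs, with 66.3 CPM in Exp IHCs against 13.7 CPM in Ctrl IHCs. Cfap46 was at 7.68 CPM in Exp OHCs and at 0 in all Ctrl OHCs, a log2 ratio of at least 10.00 against the floor of 3 counts in the group. In IHCs Cfap46 was at 80.8 CPM in Exp IHCs against 3.42 CPM in Ctrl IHCs, a log2 ratio of 4.56.

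Hydin, which encodes a large central pair protein, had ratios below 0 in both cell types. Per cell it was lowest 0, median 0.0823 and highest 253 CPM in Exp OHCs, against lowest 0, median 3.30 and highest 119 CPM in Ctrl OHCs. IHC values per cell were lowest 0, median 0.257 and highest 88.0 CPM in Exp IHCs, against lowest 0, median 7.02 and highest 258 CPM in Ctrl IHCs. The log2 ratios of -0.50 (95% interval -0.54 to -0.46) and -0.78 (95% interval -0.83 to -0.73) lay within 2-fold, and cells at 10 CPM or more were 12 of 56 Exp OHCs against 19 of 43 Ctrl OHCs, and 9 of 26 Exp IHCs against 17 of 38 Ctrl IHCs. Cfap54 was at 66.0 CPM in Exp OHCs against 27.0 CPM in Ctrl OHCs, with 64.8 CPM in Exp IHCs against 36.4 CPM in Ctrl IHCs. Cfap70 was at 53.5 CPM in Exp OHCs against 23.3 CPM in Ctrl OHCs, with 34.5 CPM in Exp IHCs against 32.9 CPM in Ctrl IHCs. Cfap74 was at 13.5 CPM in Exp OHCs against 7.02 CPM in Ctrl OHCs, with 27.0 CPM in Exp IHCs against 8.80 CPM in Ctrl IHCs. Cfap221 and Cfap99 stayed under 1 CPM.

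The tektins, which form filaments in the wall of doublet microtubules, differed more in IHCs, with summed log2 ratios of 1.34 in OHCs and 2.69 in IHCs, a difference that was not tested. Tekt2 (ENSMUSG00000028845.15, chr4:126322121-126325688, - strand) per cell was lowest 0.0623, median 64.9 and highest 465 CPM in Exp OHCs, against lowest 0, median 0 and highest 346 CPM in Ctrl OHCs. Among IHCs the values were lowest 0.387, median 209 and highest 1081 CPM in Exp IHCs, against lowest 0, median 0 and highest 237 CPM in Ctrl IHCs. Cells at 10 CPM or more were 35 of 56 Exp OHCs against 10 of 43 Ctrl OHCs, and 25 of 26 Exp IHCs against 12 of 38 Ctrl IHCs, and the log2 ratios were 3.03 (95% interval 2.99 to 3.07) and 3.87 (95% interval 3.84 to 3.90).

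Tekt1 had the highest level per length of the tektins (426 TPM in Exp OHCs and 497 TPM in Exp IHCs) and reached 10 CPM in 55 of 56 Exp OHCs against 43 of 43 Ctrl OHCs, and 26 of 26 Exp IHCs against 30 of 38 Ctrl IHCs. Its sums were 288 CPM in Exp OHCs against 152 CPM in Ctrl OHCs, with 344 CPM in Exp IHCs against 63.8 CPM in Ctrl IHCs, with log2 ratios of 0.92 and 2.43. Tekt3 was at 19.0 CPM in Exp OHCs against 2.197 CPM in Ctrl OHCs, and in IHCs at 9.77 CPM in Exp IHCs and 0 in Ctrl IHCs, a log2 ratio of at least 10.15. Tekt4 was at 8.13 CPM in Exp OHCs against 1.91 CPM in Ctrl OHCs, with 46.8 CPM in Exp IHCs against 0.640 CPM in Ctrl IHCs, and all of its Ctrl OHC counts came from Ctrl OHC 1. Its OHC log2 ratio turned to -0.25 among cells with Xist. Tekt5 was at 28.2 CPM in Exp OHCs against 13.7 CPM in Ctrl OHCs, with 37.5 CPM in Exp IHCs against 31.1 CPM in Ctrl IHCs.

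Genes of the doublet lumen and of the inner junction were 2-fold higher with few exceptions: 8 of 8 were 2-fold higher in Exp OHCs, and 7 of 8 in Exp IHCs. Cfap20, of the inner junction, was found in nearly all cells, at 205 CPM in Exp OHCs against 99.7 CPM in Ctrl OHCs, with 209.7 CPM in Exp IHCs against 109.9 CPM in Ctrl IHCs, just past 2-fold in OHCs and just short of it in IHCs. Cfap52 was at 137 CPM in Exp OHCs against 32.3 CPM in Ctrl OHCs, with 155 CPM in Exp IHCs against 21.7 CPM in Ctrl IHCs. Cfap126 (Flattop), which in mouse positions the basal body in hair cells, was at 133 CPM in Exp OHCs against 30.1 CPM in Ctrl OHCs, with 172 CPM in Exp IHCs against 21.7 CPM in Ctrl IHCs. Spag8 was at 78.8 CPM in Exp OHCs against 19.2 CPM in Ctrl OHCs, with 91.0 CPM in Exp IHCs against 0.0402 CPM in Ctrl IHCs, a log2 ratio of 2.03 (95% interval 2.00 to 2.07) in OHCs and 11.15 (95% interval 10.40 to 12.02) in IHCs.

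Cfap161 (ENSMUSG00000011154.17, chr7:83774101-83794880, - strand) was at 15.8 CPM in Exp OHCs against 0.450 CPM in Ctrl OHCs, with 56.8 CPM in Exp IHCs against 0.00287 CPM in Ctrl IHCs. The only count in Ctrl IHCs gives a log2 ratio of 14.27 (95% interval 11.79 to 19.58). Cfap45 was at 11.7 CPM in Exp OHCs against 3.59 CPM in Ctrl OHCs, with 62.6 CPM in Exp IHCs against 2.01 CPM in Ctrl IHCs. Cfap77 was at 15.6 CPM in Exp OHCs against 4.70 CPM in Ctrl OHCs, with 18.7 CPM in Exp IHCs against 3.66 CPM in Ctrl IHCs, and Cfap53 was at 11.4 CPM in Exp OHCs against 2.80 CPM in Ctrl OHCs, with 11.9 CPM in Exp IHCs against 2.43 CPM in Ctrl IHCs. Few cells carried Cfap45, with 7 of 56 Exp OHCs against 4 of 43 Ctrl OHCs, and 12 of 26 Exp IHCs against 3 of 38 Ctrl IHCs at 10 CPM or more. Its OHC ratio turned to -0.12 among cells with Y-linked transcripts.

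The rest of the set was mixed. Cfap36, whose protein binds a small GTPase of cilia, reached 10 CPM in every cell and was at 302 CPM in Exp OHCs against 193 CPM in Ctrl OHCs, with 424 CPM in Exp IHCs against 238 CPM in Ctrl IHCs, within 2-fold in both. Cfap97 too lay within 2-fold, at 36.5 CPM in Exp OHCs against 27.0 CPM in Ctrl OHCs, with 20.2 CPM in Exp IHCs against 17.7 CPM in Ctrl IHCs. Cfap299 was at 70.7 CPM in Exp OHCs against 21.1 CPM in Ctrl OHCs, with 104 CPM in Exp IHCs against 22.2 CPM in Ctrl IHCs. Cfap58 was at 18.4 CPM in Exp OHCs against 0.918 CPM in Ctrl OHCs, with 35.3 CPM in Exp IHCs against 3.28 CPM in Ctrl IHCs. Cfap157 was at 4.09 CPM in Exp OHCs against 0.791 CPM in Ctrl OHCs, with 15.1 CPM in Exp IHCs against 2.49 CPM in Ctrl IHCs. Without Cfap36 the summed log2 ratio was 1.60 in OHCs and 1.82 in IHCs. Cfap97d1 and Cfap97d2 stayed under 10 CPM.

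Some ratios rest on the control cell that stood apart. Without Ctrl OHC 1 the OHC log2 ratio was 3.19 for Cfap126 (2.14 with it), 2.92 for Cfap53 (2.02), 3.65 for Tekt2 (3.03), 6.78 for Zbbx (5.98) and 4.38 for Zmynd10 (3.63). Cfap58 (4.32 with it), Fam92b (9.84) and Tekt4 (2.09) had no count in the other Ctrl OHCs, and against the floor of 3 counts the bounds on log2 ratio were at least 11.24, 13.87 and 10.06.

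The cell types were also set against each other within a genotype. Among controls, 10 of 61 members at 1 CPM or more were 2-fold higher in Ctrl OHCs than in Ctrl IHCs (15.3% of all genes were) and 14 were 2-fold lower (13.4% of all genes), with a median log2 ratio of -0.08. Dnah8 (43.9 CPM in Ctrl OHCs, 1.30 CPM in Ctrl IHCs) and Spag8 (19.2 against 0.0402 CPM) were among the higher, and Dnaic2 (75.8 against 243 CPM) and Dnah11 (1.29 against 6.30 CPM) among the lower. Among mutants, 3 of 68 were 2-fold higher in Exp OHCs than in Exp IHCs (14.0% of all genes) and 17 were 2-fold lower (14.5% of all genes), with a median of -0.38.

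A list of 70 genes outside the set, named for their known place in the same structures, was also described. Of 68 in the table, 60 had a mean of 1 CPM or more in each cell type. In OHCs 35 of these were 2-fold higher, against 18.4% of all genes, and 1 was lower, with a median log2 ratio of 1.18. In IHCs 40 of 60 were higher, against 18.8% of all genes, and 2 were lower, with a median of 1.45. The summed level of the list was 20921 CPM in Exp OHCs against 15991 CPM in Ctrl OHCs. The IHC sums were 20684 CPM in Exp IHCs against 20918 CPM in Ctrl IHCs, so there the sum and the median differ in sign. Enkur was at 367 CPM in Exp OHCs against 100.5 CPM in Ctrl OHCs, with 493 CPM in Exp IHCs against 139 CPM in Ctrl IHCs. Nme5, a radial spoke protein gene, was at 377 CPM in Exp OHCs against 122 CPM in Ctrl OHCs, with 385 CPM in Exp IHCs against 102 CPM in Ctrl IHCs. Spag17, Nme8 and Pih1d3 were at 0 in every cell.

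Factors that drive ciliogenesis had lower median log2 ratios than the members. Of 16, 12 had a mean of 1 CPM or more in OHCs, of which 4 were 2-fold higher and 1 lower (median log2 ratio 0.05). Of all genes, 18.4% were higher there and 13.1% lower. In IHCs 10 had that mean, of which 4 were higher and none lower (median 0.77). Of all genes, 18.8% were higher there and 11.7% lower. Foxj1 was at 27.1 CPM in Exp OHCs against 9.89 CPM in Ctrl OHCs, with 28.7 CPM in Exp IHCs against 9.70 CPM in Ctrl IHCs, with log2 ratios of 1.45 and 1.57, and reached 10 CPM in 46 of 56 Exp OHCs against 12 of 43 Ctrl OHCs, and 22 of 26 Exp IHCs against 15 of 38 Ctrl IHCs. Rfx3 was at 86.0 CPM in Exp OHCs against 52.4 CPM in Ctrl OHCs, with 100.1 CPM in Exp IHCs against 61.1 CPM in Ctrl IHCs, within 2-fold. E2f4 (88.6 CPM in Exp OHCs against 79.9 CPM in Ctrl OHCs), Tfdp1 (100.2 CPM in Exp OHCs against 103 CPM in Ctrl OHCs), Rfx7 (38.9 CPM in Exp OHCs against 47.2 CPM in Ctrl OHCs) and E2f5 (23.3 CPM in Exp OHCs against 30.1 CPM in Ctrl OHCs) lay within 2-fold in both cell types. Rfx2, chosen after its values were seen, was at 10.6 CPM in Exp OHCs against 0.390 CPM in Ctrl OHCs, with 20.3 CPM in Exp IHCs against 3.62 CPM in Ctrl IHCs. Gmnc was at 0 in every cell, and Mcidas and Ccno were at under 0.1 CPM in every group.

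Markers of other cell types were checked beside these values. Of 13 markers of multiciliated cells, 7 had a mean of 1 CPM or more and 6 were 2-fold higher in the mutants in each cell type. Of all genes, 18.4% were higher in OHCs and 18.8% in IHCs. The multiciliated cell markers summed to 1603 CPM in Exp OHCs against 352 CPM in Ctrl OHCs, with 2249.5 CPM in Exp IHCs against 908 CPM in Ctrl IHCs. Of these markers, Foxj1, Mcidas, Gmnc and Ccno are also among the ciliogenesis factors. Fam183b was at 151 CPM in Exp OHCs against 8.59 CPM in Ctrl OHCs, with 179 CPM in Exp IHCs against 8.64 CPM in Ctrl IHCs. Sntn, Ccdc153 and Gmnc were at 0 in every cell, and Mcidas had 2 counts in all. Deup1, named after its values were seen, was at 1.74 CPM in Exp OHCs against 1.87 CPM in Ctrl OHCs and at 0 in all IHCs. Supporting cell markers summed to 30.0 CPM in Exp OHCs against 54.0 CPM in Ctrl OHCs, and to 16.7 CPM in Exp IHCs against 75.4 CPM in Ctrl IHCs. Glia markers summed to 4.11 CPM in Exp OHCs against 3.66 CPM in Ctrl OHCs and to 1.40 CPM in Exp IHCs against 7.47 CPM in Ctrl IHCs. Hair cell markers summed to 4596 CPM in Exp OHCs against 4443 CPM in Ctrl OHCs, with 4543 CPM in Exp IHCs against 4439 CPM in Ctrl IHCs. Neuron markers summed to 1024 CPM in Exp OHCs against 407 CPM in Ctrl OHCs and to 1488 CPM in Exp IHCs against 760.2 CPM in Ctrl IHCs. Of 6, 5 had a mean of 1 CPM or more in each cell type. Of these, 4 were 2-fold higher in OHCs and none lower, and in IHCs 2 were higher and 1 lower. Rbfox3 was at 175 CPM in Exp OHCs against 22.3 CPM in Ctrl OHCs, with 97.5 CPM in Exp IHCs against 25.7 CPM in Ctrl IHCs. Stmn2 was at 12.1 CPM in Exp OHCs against 0.218 CPM in Ctrl OHCs, with 0.00548 CPM in Exp IHCs against 1.45 CPM in Ctrl IHCs. Tubb3 was at 0.0111 CPM in Exp OHCs against 0.248 CPM in Ctrl OHCs, with 0.0329 CPM in Exp IHCs against 2.16 CPM in Ctrl IHCs. Immune markers summed to 275 CPM in Exp OHCs against 109.7 CPM in Ctrl OHCs and to 288 CPM in Exp IHCs against 122 CPM in Ctrl IHCs, nearly all of it C1qb, while Cx3cr1 was at 0 in every cell. The part of these genes in the results was not tested. Mesenchyme, erythroid and endothelial markers summed to under 10 CPM in every group. Inner hair cell markers were at 2249 CPM in Exp IHCs against 3764 CPM in Ctrl IHCs. Outer hair cell markers were at 1567 CPM in Exp OHCs against 8598 CPM in Ctrl OHCs.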

How the data were processed

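Single hair cells were read as full-length cDNA (Smart-Seq HT), per the labels' protocols. The deposited values are raw counts of reads for each gene in each cell (no molecular identifiers), which the authors made with HISAT2 2.2.1, SAMtools and featureCounts 2.0.1 on mm10, per the submitters' processing notes. Which annotation was used, whether counting used strand, and how shared reads were treated is not given in the sources used here. Symbols and coordinates came from GENCODE M21 (GRCm38), which held 55034 of the 55291 identifiers; the other 257 had 0.0128% of the counts. All columns were used.

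Cells of a group were pooled by adding their counts, and the sums were scaled to CPM. Groups were compared by log2 ratio with a 95% interval from the exact binomial split of the counts (Clopper-Pearson). Intervals and the floor of 3 counts per group cover counting error only, since PCR reads are not independent molecules. A share of 0 cells allows, by 3 cells over the number in the group, up to 5.36% in Exp OHCs, 6.98% in Ctrl OHCs, 11.5% in Exp IHCs and 7.89% in Ctrl IHCs. These rough limits take cells as independent draws, though each group is 1 sample. They do not cover the spread between animals. A gene was called higher or lower at 2-fold with a mean of 1 CPM or more. Where a sum was 0 the ratio is a bound; where both were at or under the floor none is given. The labels name no animal, so no test was run. Members at 10 CPM or more in any group (60 of 76) are named with values, and of other lists at most the 6 highest. The members and lists were chosen with earlier results of these data known. Alternatives were TMM factors (edgeR 4.0.16), the mean of cells, other level limits, thinning, leaving out the highest cell, and sets of cells by Y-linked, Xist and Gm15772 counts. The limits were 1 CPM for Y-linked and Xist counts and 40 CPM for Gm15772. In the mutants the Y-linked set and the set low in Gm15772 had the same size, 16 Exp OHCs and 7 Exp IHCs. Their median summed levels were the same too, 3934 and 6160 CPM, so these splits are not separate alternatives there. TPM divides counts by the summed exon length. Intervals were tested on simulated counts drawn from the same counting model, so that test checks the arithmetic and not the spread between cells or animals. Software was Python 3.11.15, numpy 2.4.6, pandas 2.3.3 and scipy 1.17.1.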

Additional observations from a re-analysis of the deposited data

Results flagged for a closer look

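Dnah8 differed in opposite directions in the cell types. It was at 14.9 CPM in Exp OHCs against 43.9 CPM in Ctrl OHCs, a log2 ratio of -1.56, and at 12.6 CPM in Exp IHCs against 1.30 CPM in Ctrl IHCs, a log2 ratio of 3.27. The OHC ratio less the IHC ratio came to -4.83, and this difference was not tested. Under the alternatives the OHC ratio ran from -2.03 to -1.46 and the IHC ratio from 1.07, in cells low in Gm15772, to 4.25. Dnah8 was at 10 CPM or more in 14 of 56 Exp OHCs and 26 of 43 Ctrl OHCs, and in 6 of 26 Exp IHCs and 2 of 38 Ctrl IHCs, so in each group its level comes from a part of the cells.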

How the results depend on the processing

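The number of members 2-fold higher was 48 in OHCs and 36 to 52 under the alternatives, and 51 in IHCs and 47 to 56. The shares of all genes under the alternatives were not computed, so these counts have no background beside them. The lowest in OHCs was among cells with Xist (36, or 43 without Ctrl OHC 1, a setting added after seeing the data). The number 2-fold lower in OHCs, 1 as reported, was 2 with no filter and in cells high in Gm15772, 3 in cells with Y-linked transcripts and in cells low in Gm15772, and 7 in cells with Xist, or 3 without Ctrl OHC 1. In IHCs it was 0 as reported and 1 with no filter, in cells with Xist, and in cells low or high in Gm15772. Between Ctrl OHCs and Ctrl IHCs, 18 members were higher in cells with Xist and 4 at a mean of 5 CPM, where 8 were lower. Between Exp OHCs and Exp IHCs, 3 were higher as reported and 5 with no filter, without the highest cell of each group, in cells with Y-linked transcripts and in either Gm15772 set, 6 with Xist and 1 at 5 CPM. The summed log2 ratio in OHCs was 1.48 with TMM factors, 1.46 by the mean of cells and after thinning, 1.57 without the highest cell and in cells with Y-linked transcripts, 1.10 with Xist, 1.66 low and 1.23 high in Gm15772, 1.60 without Cfap36, 1.58 without Ctrl OHC 1, and, without that cell, 1.37 with Xist and 1.38 high in Gm15772. In IHCs it was 1.63 with TMM factors, 1.71 by the mean of cells, 1.77 with Y-linked transcripts, 1.66 with Xist, 1.83 low and 1.58 high in Gm15772, and 1.82 without Cfap36. Of 46 named members past 2-fold in OHCs, Dnah8 (lower) among them, 44 kept their direction in all 11 settings and 30 kept 2-fold. Of 48 past 2-fold in IHCs, 48 and 40 did in the 8 settings that apply there. Cfap45 in OHCs turned to -0.12 in cells with Y-linked transcripts and -0.43 in cells low in Gm15772. Those sets had the same size and median summed level in Exp OHCs, so they are not separate settings there. Tekt4 in OHCs turned to -0.25 in cells with Xist. All Tekt4 counts of Ctrl OHCs came from Ctrl OHC 1, which is 1 of the 10 Ctrl OHCs with Xist. Without that cell, the Tekt4 ratio over all OHCs was at least 10.06. The cause of these changes of sign was not tested. No paired analysis was possible because replicate numbers only name cells and each group is 1 sample.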
